A study of Allium sativum with 84 samples.

Results

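The garlic accessions described here are the 18 of 84 in which Asa2G00237.1, a gene for a DELLA protein, stood above 3.5 FPKM in the enlarging bulb, and they were set against the 66 accessions at or below that value. FPKM is the number of fragments per kilobase of a gene in relation to library size. The members were therefore chosen by a measured value of 1 gene, so the levels of that gene are given as a description only, and the tests concern the other genes of the same libraries. A gene called in such a test varies with the split, and nothing more follows from the call. All 84 accessions (Allium sativum) were grown together on 1 farm at JinXiang in Shandong, and enlarging bulbs were taken in spring. Both sets share this growth site, stage and sampling, the labels name no treatment, and what differed in the labels was the country or site of collection. Each accession gave 1 library, made per the labels from 3 bulbs, and replicates of a site are different accessions, so every spread below is the spread among accessions. The methods of the study differ from the labels both in the plants pooled for a library and in the number of accessions, and the sources do not settle which holds. All labels carry 1 and the same source name, so they name no cultivar for a single accession, and spellings such as Eygpt, Amrica and Xiangjiang are those of the labels.

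DELLA proteins repress gibberellin responses in the nucleus of plant cells. When gibberellin binds its receptor, the receptor takes hold of the DELLA protein, the protein is broken down, and growth responses are released. Rice has a gene of this kind, SLR1, whose loss gives overly tall, slender plants, and the study names Asa2G00237.1 as its garlic homolog. In bulb and tuber crops gibberellin level and day length, read through FLOWERING LOCUS T (FT) and its relatives, are known to act on when storage organs form. A transcript level says nothing of the amount of DELLA protein, which is set largely by its breakdown. Garlic is propagated from cloves, so an accession is a clone, and the relatedness of the accessions was not used here.

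In the 18 high accessions Asa2G00237.1 had 3.70, 8.20 and 14.7 FPKM as the lowest, median and highest value, and in the 66 other accessions 0.466, 1.51 and 3.04 FPKM. The means were 8.40 ± 2.92 FPKM (SD, n = 18) and 1.55 ± 0.649 FPKM (SD, n = 66). The sets do not overlap because the rule divides them. Just inside the threshold stood Xiangjiang replicate 1 with 3.70 FPKM, Canada replicate 5 with 4.07 and Canada replicate 4 with 4.52. Just outside it stood Shanxi replicate 6 with 3.04 FPKM, Henan replicate 4 with 2.82 and Gansu replicate 3 with 2.79. Low FPKM values move in steps of single reads, and by these steps a median of 191.5 reads stood behind the gene in the high accessions and 35.5 in the others. In RNA of whole bulbs, a change in the share of a cell type and a change in RNA per cell cannot be told apart, for this gene and for those below, and the files pair no IDs with names, so markers of the bulb could not be looked up.

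The highest value was that of Eygpt replicate 1, with 14.7 FPKM. It was followed by Shanxi replicate 3 with 11.8, Israel replicate 1 with 11.4, Greece replicate 2 with 10.99 and Gansu replicate 2 with 10.54 FPKM. Shanxi replicate 2 had 9.94 FPKM, Greece replicate 1 9.12, Canada replicate 1 8.73 and Xinjiang replicate 6 8.36 FPKM. The upper part of the set was thus shared by accessions from China, Canada and the Mediterranean. Xinjiang replicate 3 had 8.04 FPKM, Xinjiang replicate 2 8.02, Canada replicate 3 7.82, Xinjiang replicate 8 7.496, Turkey replicate 1 6.69 and Amrica replicate 1 5.27 FPKM.

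The high accessions were unevenly spread over the collection sites. Outside China 10 of 16 accessions were high, from 6 of 11 sites, and in China 8 of 68 were high, from 4 of 21 sites. In Canada 4 of 5 accessions were high and in Greece 2 of 2, and the single accessions of Eygpt, Israel, Turkey and Amrica were high as well. The single accessions of Australia, Japan, Russia, Thailand and Ukraine were not. In China the high accessions came from Xinjiang (4 of 9), Shanxi (2 of 6), Gansu (1 of 3) and Xiangjiang (1 of 1). The other 17 sites held none, among them Shandong with 15 accessions. These 17 include the bare label China, with 6 accessions and no place named. Xiangjiang, perhaps a spelling of Xinjiang, was kept as a site of its own. Within the high set the country made little difference to the level, with a median of 8.20 FPKM in China and 8.28 outside it. The rule was made with the country difference known, so the difference is given without a test.

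**Figure D1:**
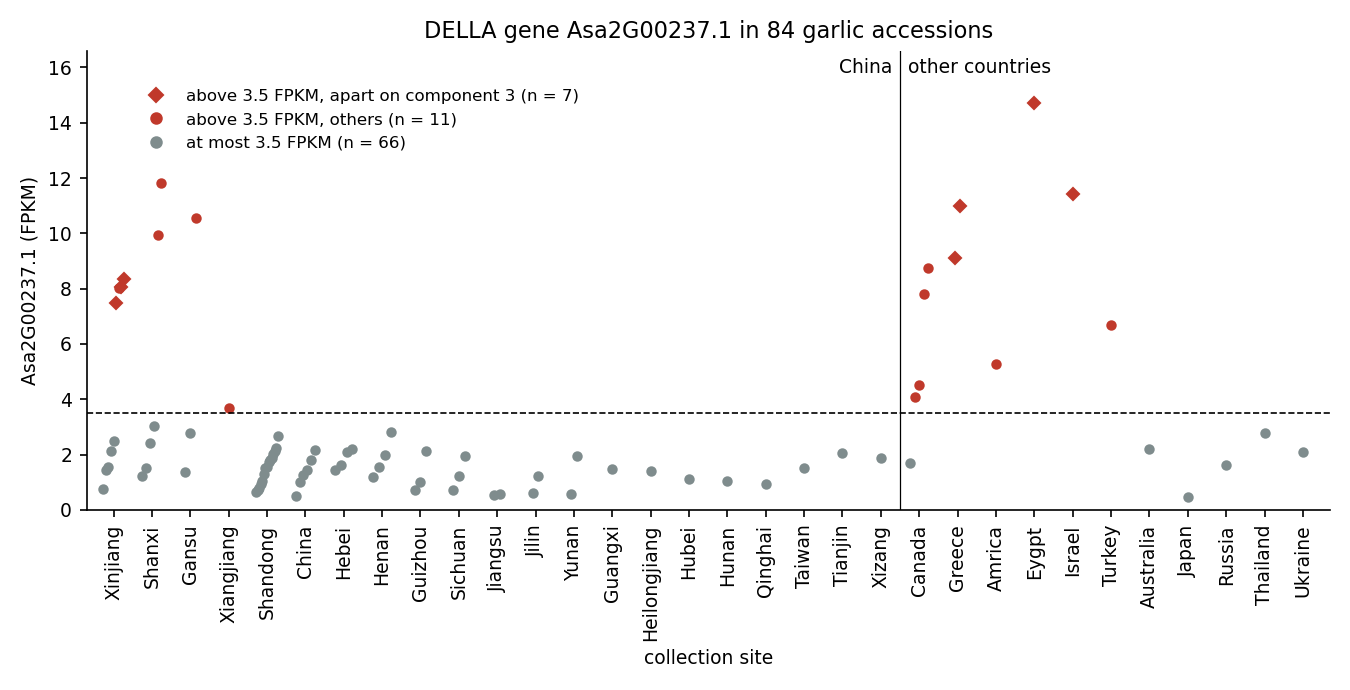
Asa2G00237.1 in FPKM (y axis) for each of the 84 accessions (1 point each) by collection site (x axis), with China left and other countries right of the vertical line and the dashed line at 3.5 FPKM. In China 8 of 68 accessions lie above the line, and in other countries 10 of 16 do; diamonds mark the 7 high accessions that stand apart on the third principal component.

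The libraries of the high accessions were not all alike, and this bears on each result below. In a principal component analysis of log2(FPKM + 1) the first 3 components held 27.2%, 13.4% and 9.58% of the variance. On the third, 7 high accessions (Xinjiang replicates 3, 6 and 8, both Greece accessions, Israel and Eygpt) lay at 133.3 to 148.3, while the other 11 high accessions lay at -6.82 to 65.3 and the 66 others at -54.6 to 63.7. These 7 are called the apart accessions below, and results are given with and without them. They were picked on these same expression values, so differences of the 7 alone are given as a description, without p-values. Pairs of the 7 had a median correlation of 0.945 across genes, against 0.839 between pairs of the other 11 high accessions and 0.851 between pairs of the 66 others. Over all pairs of high accessions the median was 0.828, and between a high and another accession it was 0.823. Between the 11 and the 66 it was 0.828. Apart from the 7, the high accessions were thus little more similar to each other than to the others by these medians. Genes share libraries and are no replicates, so these correlations are descriptions. Relative depth overlapped between the sets, with 0.495, 0.532 and 1.03 as the lowest, median and highest value in the high accessions and 0.449, 0.522 and 0.989 in the others, and 31485 to 35379 genes were above 0 in a high accession against 31851 to 36548 in another one. The deposited columns fall into 3 stretches that differ in expression, with breaks after columns 7 and 23 known from earlier results of these data, and the labels do not say what these stretches are. High accessions were 2 of 7 in the first stretch, 8 of 16 in the second and 8 of 61 in the third. The stretches held 12.04% of the expression variance (2.41% with no difference). The breaks were placed with expression values of these libraries known, so this share is a description without a test.

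**Figure D2:**
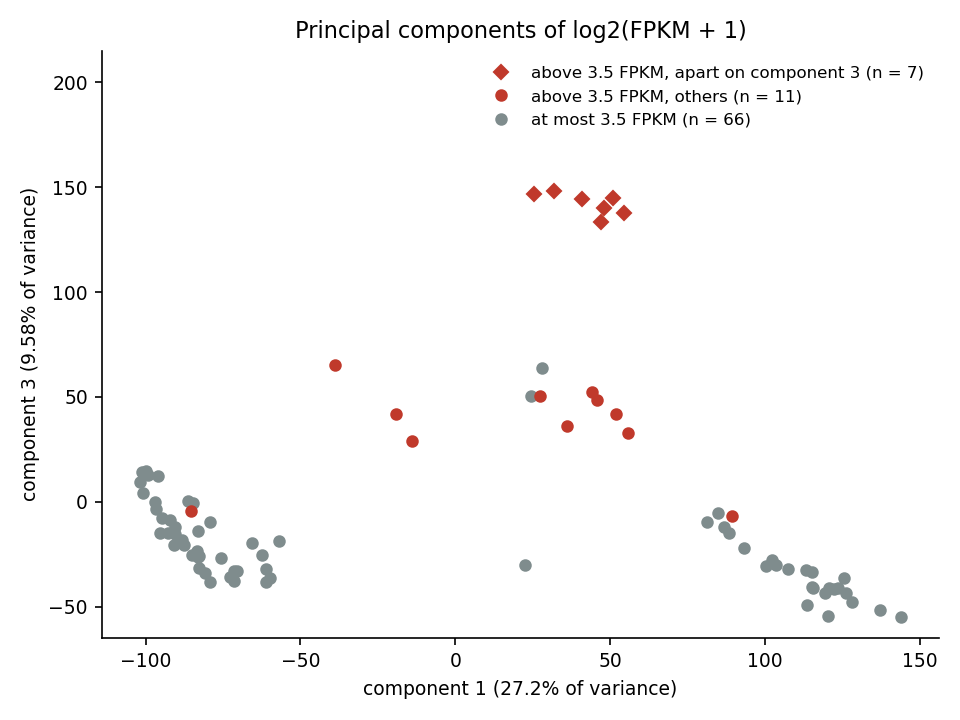
The first (x axis) and the third (y axis) principal component of log2(FPKM + 1) for the 84 accessions, 1 point each. The 7 apart accessions (diamonds) lie at 133.3 to 148.3 on the third component, above the other 11 high accessions (red circles, up to 65.3) and the 66 others (grey, up to 63.7).

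The study named 14 genes of gibberellin, day length and bud outgrowth, and these are the only genes whose products are named in the sources. Beside Asa2G00237.1, 12 of them had at least 1 FPKM in at least 4 accessions and were tested. In limma 3 of the 12 differed between the high and the other accessions, 2 higher and 1 lower, where 31.5% of all tested genes were called. Their median log2 difference was 0.02, beside -0.03 over all tested genes. A share of 3 in 12 is near the background, and no statement about these genes as a group follows from it.

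Of the gibberellin genes, Asa0G05638.1 was higher in the high accessions. The study calls it a GA20ox, a name that in plants stands for an oxidase of the late steps of gibberellin synthesis, while the text of the study words it as a catabolic enzyme, and the files do not settle its role. It had 917, 1995 and 3774 FPKM (lowest, median, highest) in the high accessions and 563, 1073 and 3631 FPKM in the others. The sets overlap over most of their range, and 17 of 18 high accessions stood above the median of the others. The log2 difference of Asa0G05638.1 was 0.74 ± 0.18 (SE, limma adjusted p = 6.28e-04). The apart accessions did not carry it, since the difference without them was 0.74 ± 0.22 (adjusted p = 0.0104) and within China alone 0.83 ± 0.26 (adjusted p = 0.0134). Outside China it was 0.58 ± 0.34 (adjusted p = 0.543). In the first 2 stretches of columns and in the third it was 0.57 and 0.54 (adjusted p = 0.15 and 0.094), so the call was lost in each of these smaller fits. With the stretch as a covariate over all accessions the call stayed, at 0.51 (limma adjusted p = 0.0196).

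Of the other 2 gibberellin genes, 1 did not pass and 1 was not tested. Asa6G01110.1, the ortholog of BEL5, a potato transcription factor whose mobile RNA promotes tuber formation, had 53.1 to 211 FPKM in the high accessions and 18.3 to 297.7 FPKM in the others, with means of 119.9 ± 35.9 and 109.9 ± 56.6 FPKM (SD, n = 18 and 66, log2 difference 0.29 ± 0.21, limma adjusted p = 0.314). Asa4G02474.1, the second GA20ox of the study, was below the minimum for a test. It was listed at 0 in 12 of 18 high and 24 of 66 other accessions, and its highest values were 0.2 and 0.833 FPKM.

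Among the 5 tested genes of day length 1 rose, 1 fell and 3 did not pass. Asa6G06199.1, an FT-like gene of the family whose proteins carry the day-length signal from the leaf, had 1.62, 8.70 and 24.9 FPKM in the high accessions and 0, 3.995 and 14.9 FPKM in the others, a log2 difference of 0.80 ± 0.24 (SE, limma adjusted p = 0.00613). The higher values belonged to the apart accessions. In these Asa6G06199.1 had 8.89, 15.7 and 24.9 FPKM, and in the other 11 high accessions 1.62, 3.82 and 11.6 FPKM. Against the 66 others the 7 differed by 1.86 ± 0.32 and the other 11 by 0.13 ± 0.27 (adjusted p = 0.777), so without the apart accessions the call was lost.

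Asa2G00681.1, an ELF4-like gene, was lower in the high accessions. ELF4 is a component of the evening complex of the plant circadian clock in Arabidopsis. It had 10.3, 24.9 and 82.9 FPKM in the high accessions and 9.79, 39.1 and 223 FPKM in the others, with a log2 difference of -0.64 ± 0.22 (SE, limma adjusted p = 0.0224). In all, 15 of 18 high accessions stood below the median of the others. This call too was lost without the apart accessions, at -0.36 ± 0.28 (adjusted p = 0.375), and the 7 alone differed by -1.08 ± 0.33. The CDF2 homolog Asa8G01471.1, named for a repressor of FT expression in Arabidopsis, had medians of 17.9 and 17.2 FPKM (log2 difference -0.16 ± 0.27, adjusted p = 0.684). Both TGA4-like genes, Asa2G04763.1 at 0.24 ± 0.30 and Asa6G01159.1 at -0.04 ± 0.18, did not pass either (adjusted p = 0.588 and 0.879).

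None of the 5 tested genes of bud outgrowth and auxin was called in limma at an adjusted p of 0.05. For Asa2G00245.1, like TB1 of maize, which holds back axillary buds, the medians were 1.65 and 1.54 FPKM (log2 difference -0.17 ± 0.18, adjusted p = 0.506). For the YUCCA-like Asa2G02184.1, of a family that makes auxin, they were 1.82 and 1.499 FPKM (0.08 ± 0.17, adjusted p = 0.774), and for the TOPLESS-related corepressor gene Asa4G00255.1 4.81 and 6.52 FPKM (-0.05 ± 0.22, adjusted p = 0.886). Their direction is not settled, as it turns under alternatives given in the closing section. The AXR1-like Asa2G00503.1, whose Arabidopsis namesake activates the ubiquitin-like protein RUB in auxin signalling, had 28.4, 41.4 and 89.6 FPKM in the high accessions and 28.8, 40.9 and 85.3 FPKM in the others (0.12 ± 0.09, adjusted p = 0.32). Without the apart accessions it passed, at 0.36 ± 0.11 (adjusted p = 0.0119). The ID Asa2G00253.1, which the study also prints for this gene, had medians of 13.8 and 27.9 FPKM (-0.44 ± 0.42, adjusted p = 0.454).

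Around Asa2G00237.1, 14 genes within 10 IDs on chromosome 2 were tested, and 3 were higher, 1 was lower and 10 were not called, a share of calls near the 31.5% of all tested genes. The sources name no product for most of them. The nearest called genes stood 3 IDs on each side. Asa2G00234.1, 3 IDs before, had 0, 5.46 and 51.5 FPKM in the high accessions and 0, 0 and 4.73 FPKM in the others. It was close to an on-off gene, listed at 0 in 65 of 66 other accessions and above 0 in 15 of 18 high ones. Its log2 difference was 2.51 ± 0.20 (SE, limma adjusted p = 1.84e-18). Asa2G00234.1 met the filter on low values only through high accessions. The filter thus favours such a rise, and the p-values of this gene are a description. Without the apart accessions the difference of Asa2G00234.1 was 2.71 ± 0.25 (adjusted p = 1.04e-14), within China 3.04 ± 0.17 (adjusted p = 1.51e-24), in the first 2 stretches of columns 2.84 ± 0.52 (adjusted p = 0.00284) and in the third 1.95 ± 0.12 (adjusted p = 1.19e-20). Outside China it was 2.13 ± 0.70 and the call was lost (adjusted p = 0.317).

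Asa2G00240.1, 3 IDs after, followed the apart accessions instead. In these it had 29.99, 131.5 and 172.6 FPKM, in the other 11 high accessions 0.224, 0.814 and 1.38 FPKM, and in the 66 others 0.161, 0.88 and 80.6 FPKM. The log2 difference of Asa2G00240.1 over all 18 high accessions was 2.06 ± 0.39 (SE, limma adjusted p = 1.82e-05), that of the 7 alone 5.59 ± 0.30 and that of the other 11 -0.18 ± 0.23 (adjusted p = 0.608). Of the remaining called neighbours, Asa2G00230.1 had medians of 3.13 and 1.78 FPKM (0.51 ± 0.12, adjusted p = 5.53e-04), and without the apart accessions its call was lost, at 0.31 ± 0.15 (adjusted p = 0.129). Asa2G00243.1 was listed at 0 in 16 of 18 high and 41 of 66 other accessions (-0.97 ± 0.32, adjusted p = 0.0162), and it was lost as well, at -0.96 ± 0.41 (adjusted p = 0.0957). The 14 neighbours, with a median log2 difference of 0.07, thus had no common direction.

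**Figure D3:**
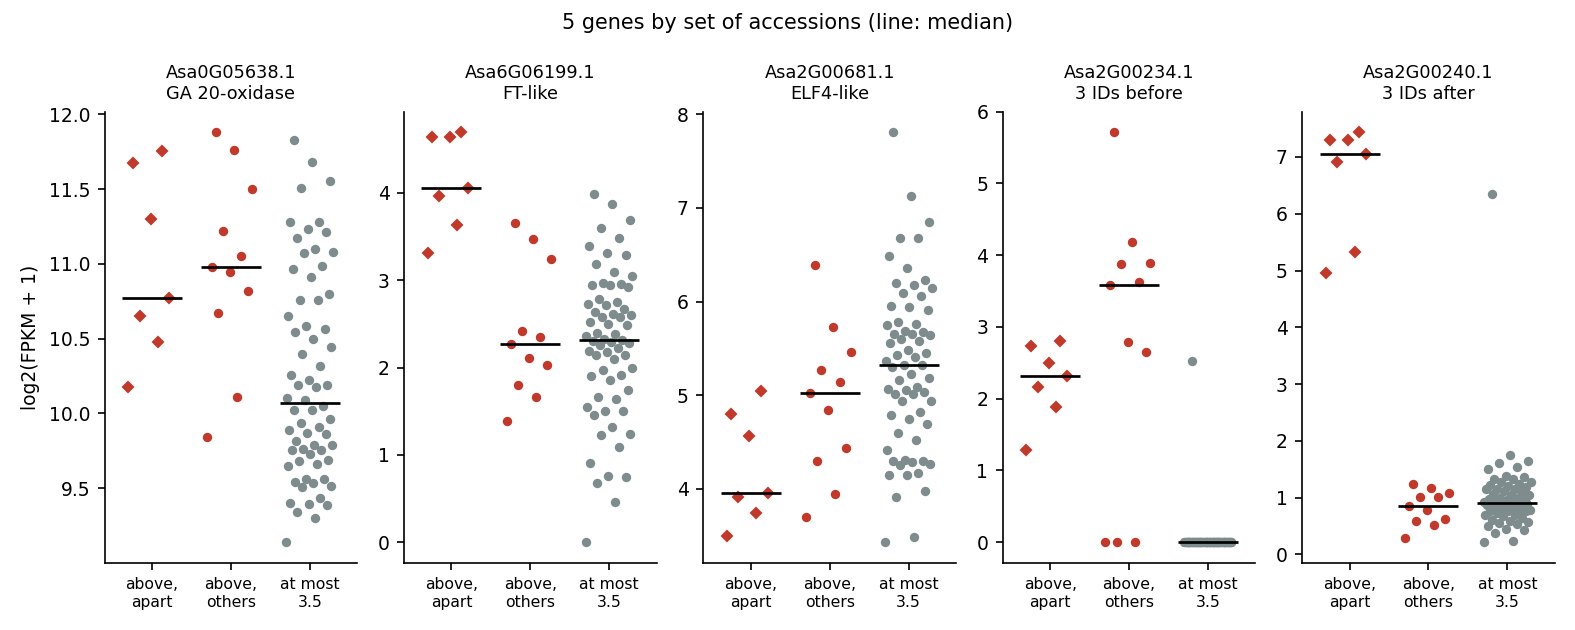
Levels of 5 genes as log2(FPKM + 1) (y axis) in the 7 apart high accessions, the other 11 high accessions and the 66 others, 1 point per accession, with a line at the median. Asa6G06199.1 and Asa2G00240.1 are raised in the apart accessions, while Asa0G05638.1 and Asa2G00234.1 are also raised in the other high accessions.

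Over the whole transcriptome 11351 of 36006 tested genes differed between the high and the other accessions in limma (31.5%), of which 5017 were higher (13.9%) and 6334 lower (17.6%). The differences were mostly small. The median absolute log2 difference was 0.67 over the called genes and 0.26 over all tested genes, and 1171 called genes were higher and 1936 lower by at least 1. At a difference of at least 2 these numbers were 156 and 320, and at least 3 they were 12 and 49. Which direction held more calls depended on the processing, with 6030 higher and 5683 lower after quantile normalization and 6612 higher and 6289 lower without a filter on low values, so no direction of the whole is given. No tested gene other than the one of the rule had all 18 high accessions above or below all 66 others. The split held 8.02% of the expression variance, against 1.20% with no difference (permutation test, one-sided, p = 1e-05, the smallest the permutations can give). The permutations take accessions as independent, although some have closely similar profiles. Splits by other genes were not tried and could also exceed the share with no difference. The permutation p-values here and below thus say nothing of Asa2G00237.1 itself.

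Without the apart accessions, the other 11 high accessions differed from the 66 others in 6655 of 35247 genes (18.9%), 2707 higher and 3948 lower. Of these, 4968 were among the 11351, of which 16 had the opposite sign. The split then held 5.84% of the variance (1.32% with no difference, permutation p = 0.00028). The apart accessions alone against the 66 others gave 11936 of 35499 genes (33.6%). These 7 were picked on the third component of the same values, so many calls are built in by the choice and the count is no test.

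The largest rise among called genes with a mean of at least 5 FPKM in either set was that of Asa7G07375.1. It had 0, 45.2 and 74.2 FPKM in the high accessions and 0, 0 and 24.1 FPKM in the others. It was listed at 0 in 65 of 66 others and 4 of 18 high accessions, and differed by 4.31 ± 0.32 in log2 (SE, limma adjusted p = 7.77e-20). Asa7G07375.1 met the filter on low values only through high accessions, so its p-value is a description. The adjacent genes Asa5G00260.1 and Asa5G00261.1 were also among the 6 largest rises. Asa5G00261.1 had 0.272, 103 and 198.5 FPKM against 0, 0.66 and 242 FPKM (3.75 ± 0.71, adjusted p = 1.57e-05), and Asa5G00260.1 had 0.1, 76.0 and 128 FPKM against 0, 0 and 71.0 FPKM (3.57 ± 0.61, adjusted p = 2.07e-06). The sets overlap widely in both, as 40 of 66 other accessions lay above the lowest high value of Asa5G00261.1 and 27 of 66 above that of Asa5G00260.1, and whether the pair shares reads was not tested. The files give no product for these genes.

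Asa1G01605.1 had medians of 27.1 and 0.136 FPKM (log2 difference 3.58 ± 0.30), Asa3G02711.1 41.6 and 2.11 FPKM (3.34 ± 0.32) and Asa2G01013.1 10.9 and 0 FPKM (3.30 ± 0.19), with limma adjusted p = 7.17e-17, 2.97e-14 and 1.24e-24. Asa2G01013.1 also had the smallest adjusted p of all higher genes. It was above 0 in 17 of 18 high accessions and listed at 0 in 64 of 66 others. Like Asa7G07375.1, it met the filter only through high accessions, so its p-value is a description. Next in p came Asa6G00834.1, Asa8G03812.1 and Asa1G03004.1, with log2 differences of 2.64 ± 0.17, 2.49 ± 0.16 and 2.65 ± 0.18, and medians of 5.97, 6.27 and 7.90 FPKM in the high accessions against 0.0416, 0 and 0.145 FPKM in the others. In each of the 3 the high accessions stood above the median of the others in 17 of 18 cases.

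The largest falls were of genes at or near 0 in most high accessions. Asa5G05030.1 had 0, 0 and 24.8 FPKM in the high accessions and 0, 39.5 and 81.4 FPKM in the others, a log2 difference of -4.69 ± 0.30 (SE, limma adjusted p = 2.90e-23). Asa4G05251.1 (-4.54 ± 0.30), Asa4G04694.1 (-4.29 ± 0.26) and Asa4G05871.1 (-4.24 ± 0.27) had the same form, with medians of 36.9, 29.4 and 27.2 FPKM in the others. Each of these 4 genes was listed at 0 in 16 of 18 high and in 2 of 66 other accessions. Asa8G02778.1 fell by 4.33 ± 0.53 (0, 0 and 113 FPKM against 0, 151 and 337 FPKM), and Asa1G00091.1 fell by 4.10 ± 0.41 (0, 0.275 and 61.6 FPKM against 0, 68.3 and 124 FPKM). Of the latter pair, Asa8G02778.1 was at 0 in 11 high accessions only, all apart accessions among them. The smallest adjusted p of a lower gene was that of Asa0G02635.1, with 0, 0.728 and 9.42 FPKM against 0.26, 20.2 and 30.5 FPKM (-3.23 ± 0.19, adjusted p = 1.43e-24). Asa6G01969.1 (medians 0 and 5.88 FPKM, -2.45 ± 0.15, adjusted p = 1.05e-23) and Asa6G01964.1 (medians 0 and 8.05 FPKM, -2.83 ± 0.17, adjusted p = 2.20e-24), 5 IDs apart, completed the group.

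Genes on in the other accessions and listed at 0 in the high ones outnumbered the reverse. Among 36006 tested genes, 79 were listed at 0 in at least 14 of 18 high accessions and reached 1 FPKM in at least 53 of 66 others, and 17 genes showed the reverse. These genes were selected on the values themselves and carry no test. An exact 0 is a gene listed at 0, which the files cannot tell from reads that failed to align to the reference. The 79 had medians of 1.65 to 39.5 FPKM in the other accessions. Chromosome 4, with 4107 of the tested genes, held 21 of them, and chromosome 5, with 4012, held 14. Of the 17, 7 lay on chromosome 2, Asa2G00234.1 among them, and this chromosome held 4875 of the tested genes. The medians of the 17 in the high accessions ran from 2.29 to 45.2 FPKM. Whether any chromosome held more than its share was not tested. In addition, 165 tested genes were listed at 0 in every other accession and above 0 in some high accession, but none of these reached 1 FPKM in 14 of them. Such a gene could be tested only if it reached 1 FPKM in 4 or more high accessions, so the filter itself favours this form. Genes listed at 0 in every high accession occurred as well, and none of those reached 1 FPKM in 53 of 66 others.

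Counted by accession, the pattern was nearly all or none, a form that the choice of these genes favours. Of the 79 genes, 15 high accessions had 75 to 79 listed at 0, and Canada replicate 3 had 51. Canada replicates 1 and 4 had none, with median levels of 62.5% and 78.7% of the median of the others over these genes. Among the 66 others, Gansu replicate 3 had all 79 at 0 and Ukraine replicate 1 had 52, and the remaining 64 had at most 3. The DELLA gene stood at 2.79 FPKM in Gansu replicate 3 and 2.08 FPKM in Ukraine replicate 1, both below the threshold.

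The 17 genes of the reverse pattern divided the high accessions further. In the 7 apart accessions and in Xinjiang replicate 2 and Shanxi replicate 3 all 17 reached 1 FPKM, and in Xiangjiang replicate 1, Canada replicate 5 and Gansu replicate 2 16 did. Turkey replicate 1 had 10 of them, and Canada replicates 3 and 4, Amrica replicate 1 and Shanxi replicate 2 had 11 each. Canada replicate 1 had none. Ukraine replicate 1 with 11 and Gansu replicate 3 with 16 again stood with the high accessions, against at most 2 in the remaining 64. Some accessions had genes of both kinds on. Beside 11 of the 17 at 1 FPKM or more, Canada replicate 4 had all of the 79 above 0, Canada replicate 3 had 28 and Ukraine replicate 1 had 27.

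**Figure D4:**
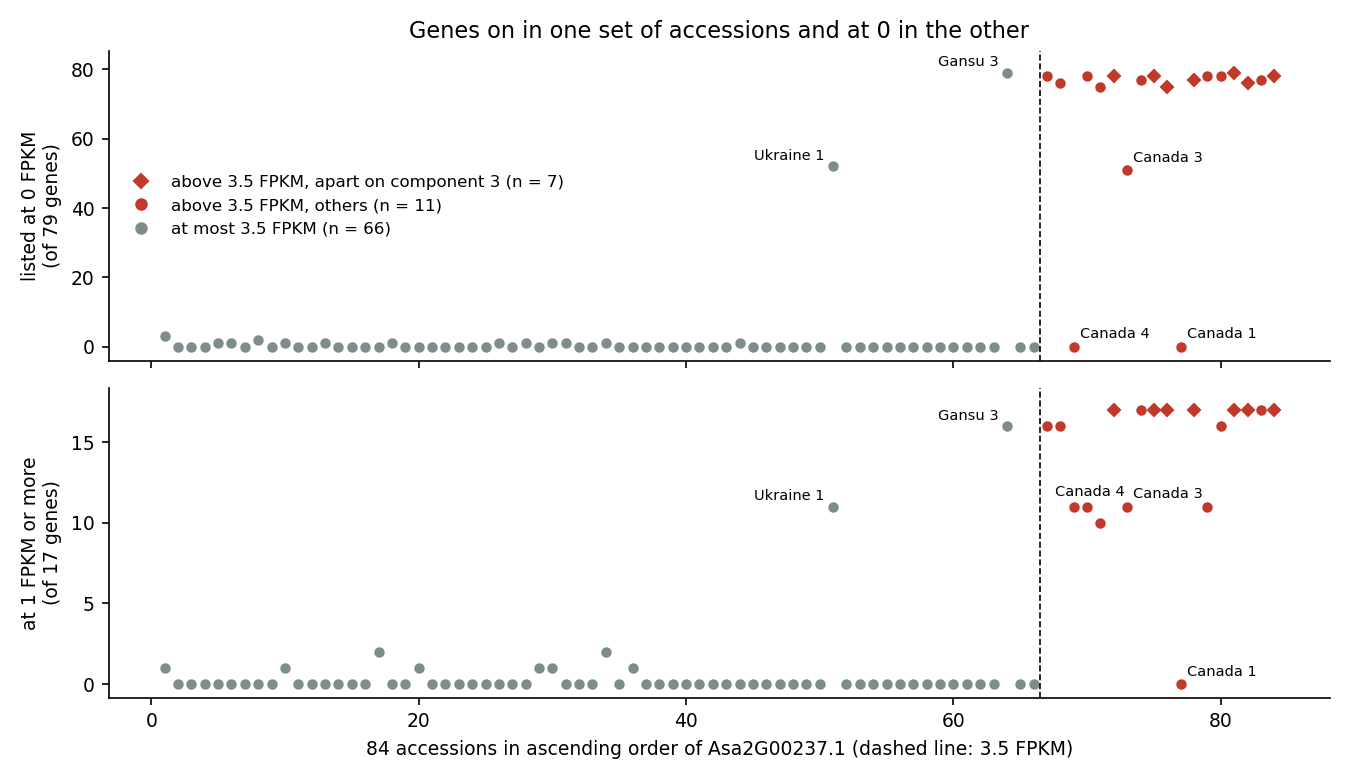
For each of the 84 accessions, in ascending order of Asa2G00237.1 (x axis), the number of the 79 genes listed at 0 FPKM (top) and of the 17 genes at 1 FPKM or more (bottom). Right of the dashed line Canada replicates 1 and 4 have 0 of the 79 at 0, and left of it Gansu replicate 3 has 79 and Ukraine replicate 1 has 52.

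A second description used no gene chosen with the accession itself. For each accession the 200 genes that best divided the remaining high and other accessions were taken. Each gene placed the accession between the mean of the others (0) and that of the high ones (1), and the median over the 200 genes was its position. A total of 16 high accessions lay at 1.06 to 1.20, Canada replicate 4 at 0.17 and Canada replicate 1 at 0.04. Of the others, 64 lay at -0.09 to 0.16, Ukraine replicate 1 at 1.09 and Gansu replicate 3 at 1.11. No position lay between 0.17 and 1.06, which left 2 clusters. The 200 genes were taken because they divide the 2 sets, so such a gap is favoured by the choice and carries no test. Membership of the clusters matched the threshold of 3.5 FPKM except for these 4 accessions. Canada replicate 1 had 8.73 FPKM of the DELLA gene, above the median of the high accessions, and lay in the cluster of the others.

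**Figure D5:**
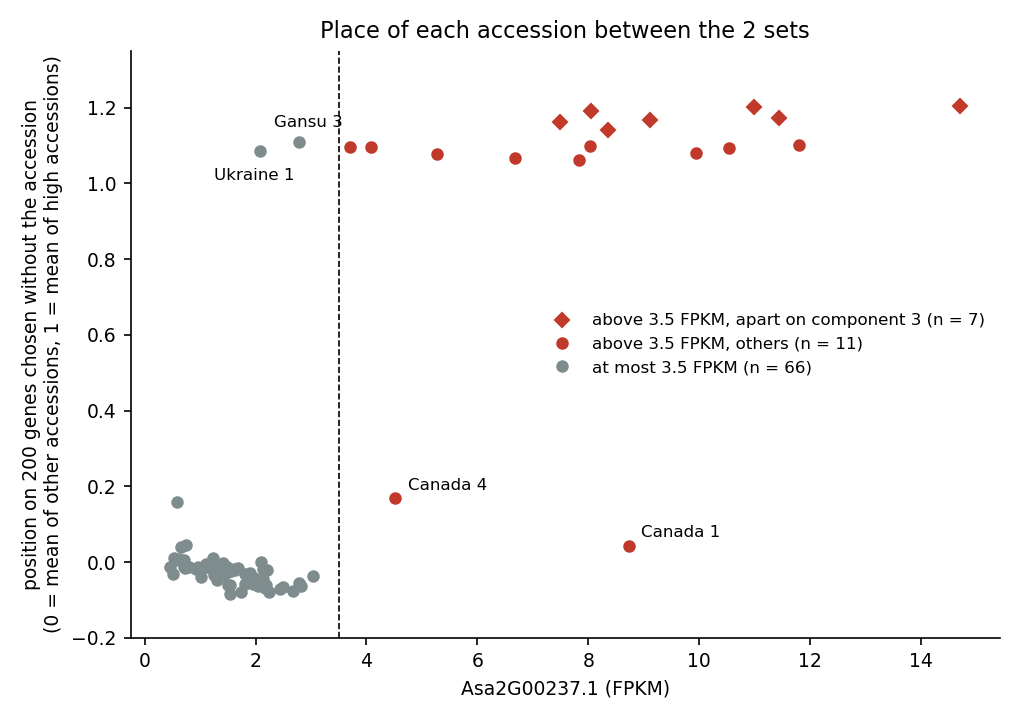
Position of each accession between the others (0) and the high accessions (1), as the median over 200 genes chosen without it (y axis). The x axis is Asa2G00237.1 in FPKM, with 1 point per accession and a dashed line at 3.5 FPKM. The 16 high accessions lie at 1.06 to 1.20 with Ukraine replicate 1 and Gansu replicate 3, and Canada replicates 1 and 4 lie at 0.04 and 0.17.

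The most similar library of each accession, by correlation across genes, gave the same 2 exceptions among the high accessions. For 16 of 18 high accessions it was another high accession, and for Canada replicate 4 and Canada replicate 1 it was Shandong replicate 1 and China replicate 2. In 1 of the 16, Canada replicate 3, it was Canada replicate 4 (r = 0.925), which by position lay with the others. Similar pairs crossed borders, as with Greece replicate 1 and Xinjiang replicate 8 (r = 0.974), Amrica replicate 1 and Shanxi replicate 2 (r = 0.952) and Greece replicate 2 and Eygpt replicate 1 (r = 0.964). Of the 66 others, the most similar library was a high accession in 2. Leaving out Canada replicates 1 and 4, a choice made after their values were seen, 12020 genes were called, of which 10827 were among the 11351.

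The split was also fitted in sets of libraries that share no accession. Within China, 8 high accessions against 60 others gave 7169 of 35011 genes (20.5%), 3127 higher and 4042 lower, or 5426 higher and 4087 lower without a filter on low values. Outside China, 10 high against 6 others gave 6 of 30906 in limma (0.0194%), with 3218 at an unadjusted p under 0.05. The count outside China depended on single libraries, and was 78 without Canada replicate 1, 46 without Ukraine replicate 1, 43 without Canada replicate 4, 17 without Canada replicate 5, 1 without Russia replicate 1 and 2 or 3 without any other single accession. Directions were nonetheless mostly shared. The 2 sides share no library but do hold closely similar profiles, as with Greece replicate 1 and Xinjiang replicate 8 (r = 0.974). Amrica replicate 1 and Shanxi replicate 2 (r = 0.952), neither of them apart, are another such pair. Shared directions are therefore a description and no independent repeat. Of 6621 genes called within China and tested outside it, 6092 (92.01%) had the same direction outside China, beside 70.3% of all 30537 genes tested in both. At an unadjusted p under 0.05 outside China, 1673 of them had the same direction and 1 the opposite, and the median ratio of the difference outside to that within China was 0.602. Without the apart accessions, which occur in both sets, 80.2% of 5344 genes kept the direction, beside 62.2% of all genes, and the ratio was 0.328. Of the differences themselves, 4 of 36006 differed between China and other countries in limma (1946 at an unadjusted p under 0.05). The variance share was 7.01% within China (1.49% with no difference, permutation p = 0.00024) and 10.3% outside it (6.67% with no difference, permutation p = 0.0646).

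The 6 genes called in both were all lower. Asa6G00832.1 had 0, 0 and 1.56 FPKM in the high accessions and 0, 3.33 and 7.003 FPKM in the others, with log2 differences of -2.07 ± 0.20 within China and -1.91 ± 0.25 outside it (limma adjusted p = 9.42e-14 and 0.00984). Asa6G00211.1, with medians of 0 and 6.03 FPKM, differed by -2.64 ± 0.24 and -2.62 ± 0.39 (adjusted p = 1.13e-14 and 0.0256), and Asa6G01964.1 by -3.03 ± 0.22 and -2.90 ± 0.42 (adjusted p = 1.46e-18 and 0.0256). In these 3 the difference was of like size on both sides. Asa8G04385.1, Asa6G05033.1 and Asa0G00427.1 differed by -1.01, -1.74 and -0.73 within China and by -2.99, -2.19 and -1.53 outside it. Asa6G00832.1 stood 2 IDs from Asa6G00834.1, which was among the strongest rises, so the direction changed within a few genes.

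By stretches of columns, the third alone (8 high, 53 others) gave 9773 of 34782 genes (28.1%) and the first 2 (10 high, 13 others) 2360 of 32445 (7.27%). The stretches differ in which high accessions they hold, since 6 of the 8 in the third are apart accessions, against 1 of the 10 in the first 2, so stretch and apart accessions cannot be told apart in these counts. Without the apart accessions the third stretch, with 2 high accessions left, gave 1148 of 33854 genes (3.39%) and the first 2, with 9 left, 2454 of 32238 (7.61%). In the first 2 stretches 1451 called genes were higher and 909 lower, but 729 higher and 1123 lower after median-ratio scaling, which moved the median log2 difference of all genes from 0.07 to -0.05. No direction of the whole is therefore given there. Of 8810 genes called in the third stretch, 71.9% had the same direction in the first 2, beside 62.5% of all genes tested in both, and of 958 called in both 917 had the same direction. When the stretch entered the model, the count was 11547, and 8945 genes were shared with the 11351. Their part in single calls was not tested further.

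The called genes were found on every chromosome. The share of tested genes called was lowest on chromosome 7 (27.6%) and highest among genes on unplaced sequence (36.7%), followed by chromosome 4 (35.0%) and chromosome 2, which holds the DELLA gene (32.8%). After a gene called higher, the next tested gene in the order of IDs was also called higher in 20.1% of cases, beside 13.9% of all tested genes, and after a gene called lower the next was lower in 26.2%, beside 17.6%. Runs of at least 6 tested genes called in 1 direction numbered 12. The longest was of 10 lower genes from Asa8G04113.1 to Asa8G04127.1, and the longest of higher genes was of 8 from Asa7G02885.1 to Asa7G02893.1. On chromosome 2, 2 runs of 7 lower genes lay close to each other, from Asa2G00294.1 to Asa2G00302.1 and from Asa2G00304.1 to Asa2G00312.1.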

How the data were processed

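RNA from enlarging bulbs of 84 accessions was sequenced. The authors aligned reads with HISAT2, for which the submitters' notes give version 2.2.1.0, and deposited FPKM for 57561 genes, and how reads were counted is not given in the sources used here. No column belonged to another series. A count model was not applied, since the values are not whole counts. They were taken as log2(FPKM + 1), on which changes of low genes are understated, and the test took genes that reached 1 FPKM in 4 or more fitted accessions, with limma 3.58.1 (R 4.3.3, intensity trend, two-sided, Benjamini-Hochberg, threshold 0.05), without covariates as in the study. Asa2G00237.1 was left out. P-values measure the spread among accessions, treated as independent. Variance shares of the split were tested with 100000 permutations. Relative depth came from the commonest FPKM ratio of weak genes between libraries, with the first column at 1, and absolute depth is unknown. The fit was tested on simulated data.

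The accessions, the threshold and the gene lists were chosen with earlier results of these data known. Named genes are the 14 of the study, tested genes within 10 IDs of Asa2G00237.1, the 6 largest rises and falls with a mean of at least 5 FPKM, the 4 genes of smallest adjusted p in each direction, and 3 genes called in both China and other countries (the 3 others called in both were added after their values were seen). The on-off genes, the stretches of columns as separate fits and the libraries left out were chosen after seeing the data. Alternatives changed scaling, pseudocount, filter, weights, covariates, threshold and accessions. Genetic groups of the study and phenotypes were not analysed here. Tables and plots were made in Python 3.11.15 with Matplotlib 3.10.9, pandas 2.3.3, SciPy 1.17.1 and NumPy 2.4.6.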

Additional observations from a re-analysis of the deposited data

Results flagged for a closer look

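In 4 of 36006 genes the difference between the high and the other accessions was not the same within and outside China, by the interaction term of limma. They were chosen by this test, and in each the difference outside China was lower than that within China. Asa0G02189.1 had an interaction term of -2.441 ± 0.46 in log2 (SE, adjusted p = 0.0383), with medians of 5.17 FPKM in high and 0 in other accessions of China, and 0.108 and 0.121 FPKM outside it. For Asa5G04072.1 the term was -1.782 ± 0.35 (adjusted p = 0.0383), with medians of 5.47 and 0 FPKM in China and 0 in both sets outside it. Asa4G03161.1 had a term of -1.132 ± 0.23 (adjusted p = 0.0383) and Asa3G04073.1 of -0.9738 ± 0.20 (adjusted p = 0.0492), and their medians in the high accessions of China were 0.911 and 0.776 FPKM against 0 in every other set. A check of 10 collection sites or sets flagged no single accession in Asa2G00237.1. The spread within a site could still be wide, as in Gansu with 1.38, 2.79 and 10.54 FPKM in its 3 accessions.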

How the results depend on the processing

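The count over all accessions ran from 9395 (country as a covariate) to 16315 (accession weights) over changes of scaling, pseudocount, filter, weights, covariate and threshold, and from 10379 to 12109 with each accession left out in turn, when 89.7% to 99.2% of the 11351 genes remained. It was 2360 in the first 2 stretches of columns alone, 2454 there without the apart accessions and 1148 in the third stretch without them, and 4 genes were called for the interaction of the split with country. Within China it was 3703 in the third stretch alone, with 2 high accessions left, both apart, and 5820 to 7600 with each accession left out. Outside China it was 3 with median-ratio scaling, 3 with a pseudocount of 0.1 and 0 without the apart accessions (limma, 1639 genes at an unadjusted p under 0.05), and 1 to 78 with each accession left out. Without the apart accessions the count was 5557 to 7695 when each of the 11 high accessions was left out. The variance share outside China was 10.3%, which missed the threshold (permutation p = 0.0646). Why these values moved was not tested, beyond the smaller number of accessions.

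Each called gene of the lists and of the largest changes stayed called over all accessions whichever one was left out. With other settings 2 calls were lost, that of Asa2G00681.1 with a slope on the DELLA level (-0.20, limma adjusted p = 0.15) and that of Asa2G00243.1 with accession weights (-0.53, 0.172). Calls were gained by Asa6G01110.1 (0.29, adjusted p = 0.0182) and Asa2G04763.1 (0.41, 0.0167) with the slope, by Asa2G00241.1 (0.54, 0.00965) and Asa2G00247.1 (0.39, 0.0097) with the column stretch as a covariate, by Asa2G00241.1 (0.51, 0.00386) with weights and by Asa2G00231.1 (0.36, 0.0148) after quantile normalization. Apart from Asa2G00240.1, whose difference turned without the apart accessions, and the 16 genes called with the opposite sign in that fit, the following turns were in genes not called on either side. With the column stretch as a covariate these were Asa8G01471.1 (0.0461), Asa2G00245.1 (0.1033), Asa2G02184.1 (-0.1347), Asa4G00255.1 (0.2288), Asa2G00253.1 (0.0017) and Asa2G00232.1 (0.1204). After quantile normalization they were Asa6G01159.1 (0.006), Asa4G00255.1 (0.0362), Asa2G00232.1 (0.0702) and Asa2G00246.1 (0.0541). A threshold of 5 FPKM turned Asa8G01471.1 (0.061), Asa2G02184.1 (-0.0031), Asa4G00255.1 (0.0792) and Asa2G00232.1 (0.0369), and a threshold of 3 FPKM Asa4G00255.1 (0.0038) and Asa2G00246.1 (0.0269). A slope on the DELLA level turned Asa8G01471.1 (0.0624), Asa4G00255.1 (0.1332) and Asa2G00244.1 (0.038), accession weights Asa2G00227.1 (-0.0165) and Asa2G00246.1 (0.162), and country as a covariate Asa2G00253.1 (0.1293). With single accessions left out the turned values were 0.0186 for Asa8G01471.1, 0.0002 to 0.0042 for Asa6G01159.1, -0.0234 for Asa2G02184.1, 0.0059 for Asa4G00255.1, -0.0276 for Asa2G00227.1, 0.005 for Asa2G00232.1 and 0.0025 to 0.0166 for Asa2G00246.1.

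No paired analysis was possible because each accession has 1 library and replicate numbers only name it. Depth beyond ratios between libraries is unknown, so genes of a few reads could not be weighed by it.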
